A study of Homo sapiens with 12 samples.

Results

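Binding of the glucocorticoid receptor (NR3C1) and of STAT5B was examined at 35 genes that encode T-cell surface molecules and the signalling proteins of the T-cell receptor. The genes were a given list, chosen with earlier results of these data known. All 35 were found among the 20037 protein-coding genes of the RefSeq table used here. A gene was linked to a library when the summit of a peak, the position of its highest signal, lay inside the gene's span or within 20 kb of it. The data are lists of peaks from chromatin immunoprecipitation and sequencing (ChIP-seq) in SUPT-1 cells, a long-established human line derived from T-cell lymphoblastic disease.

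All cells carried a doxycycline-inducible STAT5B transgene, under puromycin selection and induced with doxycycline in every group. In the WT line the transgene was wild-type STAT5B, and in the N642H line it was the activating mutant N642H. Each line was either left without steroid (called untreated, although induced) or cultured with the synthetic glucocorticoid prednisolone at 250 µg per ml for 16 hours, and each was immunoprecipitated for NR3C1 and for STAT5B. This gave 8 ChIP libraries, 1 in each group, so no difference between libraries could be set against replicate spread and no test between groups was made. The labels name no clone, and the amounts of endogenous and introduced STAT5B are not given in the sources used here. Peak lists show where a factor was enriched and not how much a gene was transcribed, so the T-cell identity of the line was not checked by expression.

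The T-cell receptor recognises peptides bound to MHC molecules but cannot signal by itself. The CD3 chains and the zeta chain carry its signal into the cell, the co-receptors CD4 and CD8 bring in the kinase LCK, and LCK and ZAP70 phosphorylate the adaptors LAT and LCP2, on which further signalling proteins assemble. Surface molecules such as CD28 and CTLA4 raise or lower the response. Glucocorticoids act on thymocytes and T-leukaemia cells through NR3C1, which enters the nucleus and binds DNA after it has bound its ligand, and STAT5B binds DNA after cytokine receptors have activated it.

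Both untreated NR3C1 lists held 2 regions, and the other 6 lists, called long here, held between 446 and 4542. With prednisolone the NR3C1 lists held 995 (WT) and 2888 (N642H) regions. The STAT5B lists held 2267 (WT) and 4542 (N642H) without prednisolone, and 766 and 446 with it. Fold enrichment is the authors' ratio of ChIP signal to local background at a summit, and −log10 q is their adjusted significance of that peak. Both were deposited by the authors for every peak and were not scaled between lists here. A rank is the place of a region in its list by −log10 q. Sequencing depth per library is not given in the sources used here, so the number of ChIP fragments covering a summit (tags) was solved from the deposited fold and p-value. Across the 53 region calls at these genes it ran from 10 to 111 tags with a median of 18, and the local background from 0.64 to 3.67 tags.

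With prednisolone, NR3C1 was linked to a larger share of these genes than of protein-coding genes at large. The genes were chosen with earlier results of these data known, so the shares are descriptive and give no independent test. In the WT line 10 of 35 genes were linked (28.6%), against 4.16% of all protein-coding genes. In the N642H line 18 of 35 were linked (51.4%), against 10.9%. The links are not all separate sites. In each line CD1B and CD1E were linked through the same region, and in N642H so were CD3D and CD3G. Without prednisolone none of the 35 was linked to NR3C1 in either line, where 0.0200% of all genes were. All 10 genes linked in the WT line were also linked in the N642H line (3.79% of all genes were linked in both), and 8 further genes were linked in the N642H line alone. The share of all genes linked in N642H alone was not counted separately, while 10.9% were linked in N642H and 3.79% in both lines. The N642H list was the longer one, and the order turned when its 995 strongest regions were used, a setting chosen after the data had been seen. Then 6 of 35 genes (17.1%) were linked in N642H, against 4.10% of all genes.

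STAT5B links lay closer to the share of all genes than NR3C1 links did. In untreated cells 7 of 35 genes were linked in the WT line (20%), against 15.8% of all genes, and 12 of 35 in the N642H line (34.3%), against 28.8%. With the N642H list cut to the 2267 regions of the WT list, also chosen after the data had been seen, 9 of 35 were linked (25.7%), against 16.4%. With prednisolone STAT5B was linked to 1 of 35 genes in the WT line (2.86%), against 6.09%, and to 0 of 35 in the N642H line, against 3.01%. The members were somewhat longer than the typical gene, with a median span of 32220 bp against 24115 bp. Among the 8483 genes whose span lay in the middle 50% of the members' spans, NR3C1 was linked to 3.09% (WT) and 8.97% (N642H), and untreated STAT5B to 16.8% and 31.2%. The shares of the members cover all 35, longer and shorter ones included, and were not counted within that range of spans.

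**Figure D1:**
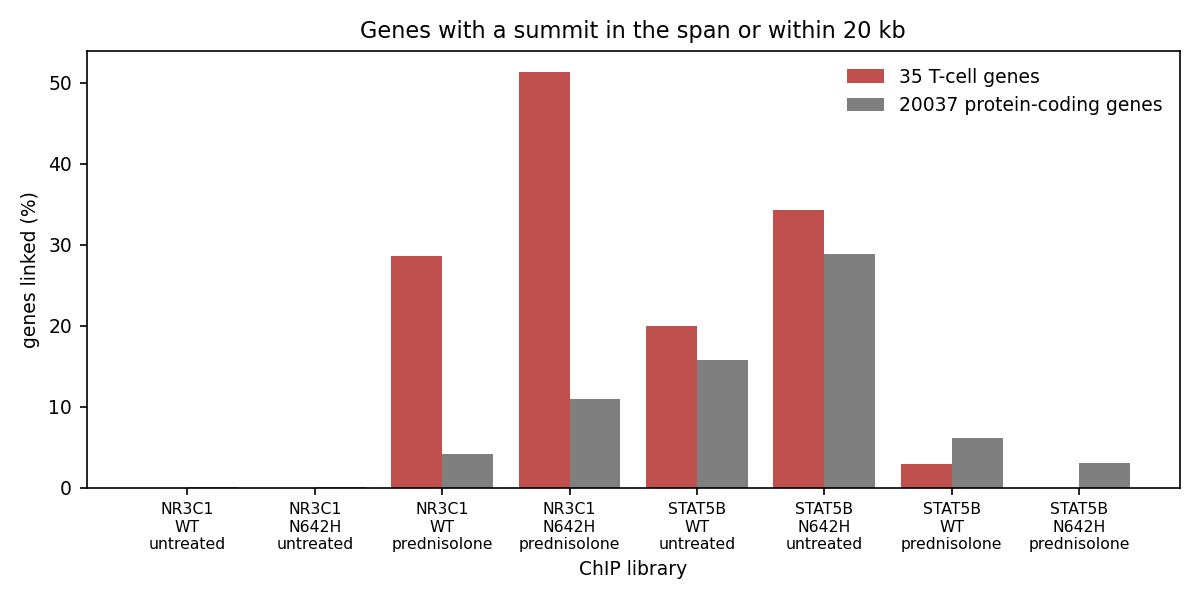
Share of genes linked to each of the 8 ChIP libraries, in percent, for the 35 T-cell genes (red) and for all 20037 protein-coding genes (grey). The red bars stand well above the grey ones for NR3C1 with prednisolone (28.6% against 4.16% in WT, 51.4% against 10.9% in N642H) and nearer to them for untreated STAT5B (20% against 15.8% in WT, 34.3% against 28.8% in N642H).

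In all, 22 of the 35 genes were linked in at least 1 list (62.9%), against 36.3% of all genes, and 13 in none. NR3C1 was linked to 18 genes in either line (51.4%, against 11.3%) and STAT5B to 14 in any list (40%, against 32.6%). Both antibodies were linked to 10 genes (28.6%), against 7.48% of all genes. Regions were then merged where they overlapped between lists, and a region shared by neighbouring genes was counted once. This gave 34 sites, of which 18 were called with NR3C1 alone, 10 with STAT5B alone and 6 with both antibodies. At these 6 the NR3C1 calls were with prednisolone, and only the CD3E site had a STAT5B call with prednisolone as well. Sites were not counted over the whole lists, so no share of all sites stands beside these numbers. Of these sites 20 were called in 1 list, 11 in 2, 2 in 3 and 1 in 5. Under 20 tags were found at the summit in 36 of the 53 calls (67.9%), against 74% of the regions solved in the 6 long lists. Within single lists this share was higher at these genes in all but untreated STAT5B of N642H (58.3%, against 76.7%). For NR3C1 it was 60% in WT, against 52.5%, and 65.2% in N642H, against 57.6%. In WT it was 100% for untreated STAT5B, against 94.3%, and 100% (1 call) for STAT5B with prednisolone, against 82.6%. A fold of 10 or more was reached by 8 of 53 calls (15.1%, against 15.8%). The lists differ in this too: for NR3C1 in N642H 21.7% of the calls at these genes reached that fold, against 35% of the list. For untreated STAT5B in N642H it was 8.33%, against 6.41%. The median fold of the NR3C1 regions at these genes was 6.21 in WT and 7.12 in N642H, against 8.68 and 8.26 over the whole lists. For untreated STAT5B it was 6.52 in WT and 6.74 in N642H, against 6.25 and 6.13.

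**Figure D2:**
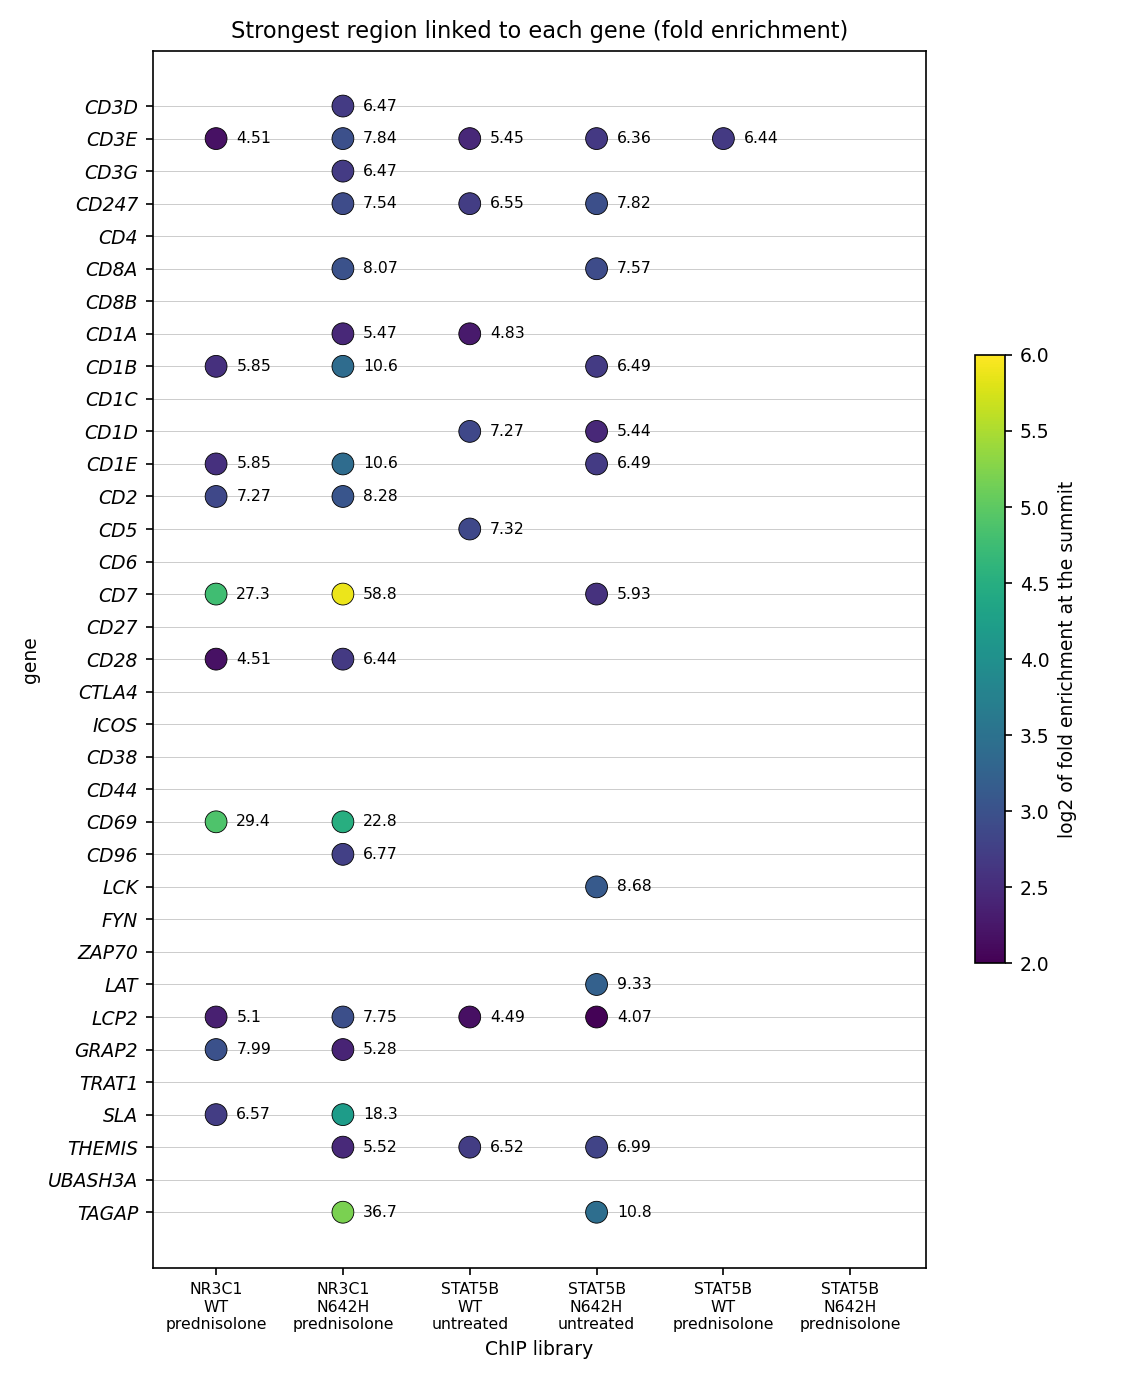
Highest fold enrichment among the regions linked to each of the 35 genes (rows, ordered by role) in the 6 libraries with more than 2 regions (columns). A point marks a link, its colour the log2 of the fold and the number beside it the fold, and an empty cell means that no region was linked. CD7, CD69, TAGAP and SLA hold the highest folds, all with NR3C1, and the column of STAT5B in the N642H line with prednisolone is empty.

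The CD3 and zeta chains were linked to NR3C1 at 1 of 4 genes in WT and at 4 of 4 in N642H. The shares of all genes were 4.16% and 10.9%. CD3D and CD3G were linked only through the same region, which CD3E shares. CD3E, CD3D and CD3G encode the CD3 chains and lie side by side on chromosome 11. A site lay 597 to 715 bp beyond the higher-coordinate end of CD3E (gene ID 916, 118304730 to 118316173). It was called in 5 of the 6 long lists, the most of any of the 34 sites at these genes. With NR3C1 and prednisolone its fold was 4.51 in WT (14 tags) and 7.84 in N642H (21 tags). With untreated STAT5B its fold was 5.45 in WT (14 tags) and 6.36 in N642H (19 tags), and with STAT5B and prednisolone it was 6.44 in WT (14 tags). No STAT5B region was called there in the N642H line with prednisolone, where the nearest one lay 120054 bp from CD3E. Within its lists the region ranked 988 of 995 (NR3C1, WT), 1342 of 2888 (NR3C1, N642H), 1427 of 2267 (untreated STAT5B, WT), 1553 of 4542 (untreated STAT5B, N642H) and 558 of 766 (STAT5B with prednisolone, WT). It was thus near the end of the WT NR3C1 list and further up in the other 4 lists. In WT the −log10 q of the site was 2.5 (NR3C1), 4.64 (untreated STAT5B) and 4.25 (STAT5B with prednisolone). In N642H it was 12 (NR3C1) and 8.33 (untreated STAT5B). Setting −log10 q to at least 5 thus left only the N642H calls. The site held the only STAT5B region linked to any of the 35 genes with prednisolone, and that link was among those removed.

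A second CD3 site lay between CD3E and CD3D, at 118334715 to 118335046, and was called only in the N642H NR3C1 list (fold 6.47, 23 tags, rank 1512 of 2888). It lay 4169 bp from CD3D, 9559 bp from CD3G and 18612 bp from CD3E, so these 3 genes share it. CD247, which encodes the zeta chain (gene ID 919, chromosome 1, 167430640 to 167518529), held 5 sites inside the gene. NR3C1 regions of the N642H line had folds of 5.44, 7.54 and 6.77. STAT5B regions had a fold of 6.55 in untreated WT and of 7.82 and 6.40 in untreated N642H. Only the site 1357 bp downstream of the CD247 start was called with both antibodies, in the N642H line, with summits at the same base. The WT STAT5B site was not called in N642H, and the nearest WT NR3C1 summit was 99078 bp away.

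Among the co-receptor genes 1 of 3 was linked in some list, against 36.3% of all genes. CD8A (gene ID 925, chromosome 2, 86784605 to 86808396), the alpha chain of CD8, had overlapping regions in the N642H line with NR3C1 (86785577 to 86785786, fold 8.07, 18 tags) and with untreated STAT5B (fold 7.57, 25 tags). Their summits were 58 bp apart, inside the gene and about 1 kb from its lower-coordinate end. No WT list had a region there. CD8B was not linked, since this site lay 29675 bp from it, and neither was CD4, whose nearest summits were 31673 bp (NR3C1) and 31708 bp (untreated STAT5B) away, both in N642H.

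CD1 molecules present lipid antigens and mark cortical thymocytes. Of the 5 CD1 genes, which form a cluster on chromosome 1, 4 were linked in some list (against 36.3% of all genes) and CD1C in none. A site 2410 to 2430 bp above CD1B, at 158333807 to 158334131, was called with NR3C1 in both lines (fold 5.85 with 14 tags in WT, fold 10.6 with 34 tags in N642H) and with untreated STAT5B in N642H (fold 6.49, 25 tags). CD1E shares it at 19933 to 19953 bp, just inside the 20 kb limit. The nearest distances just outside the limit were those of CD3D, 22066 to 22184 bp from the CD3E site. CD1A had an NR3C1 region 3900 bp away in N642H (fold 5.47, 10 tags) and an untreated STAT5B region 86 bp upstream of its start in WT (fold 4.83, 13 tags). CD1D had an untreated STAT5B region 17583 bp away in WT (fold 7.27) and another, 139 bp downstream of a listed start, in N642H (fold 5.44). No STAT5B site of the CD1 cluster was called in both lines.

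Of the T-lineage receptors CD2, CD5, CD6 and CD7, CD7 carried the region with the highest fold of all 35 genes in the N642H line, and the second highest, after CD69, in WT. CD7 (gene ID 924, chromosome 17, 82314873 to 82317608) is an early T-lineage antigen that T-leukaemia cells commonly keep. An NR3C1 site 17318 bp below the gene, at 82297353 to 82297767 in WT, had a fold of 27.3 with 60 tags and ranked 65 of 995. In N642H its fold was 58.8 with 111 tags and it ranked 57 of 2888. The summits of both lines were 4 bp apart, and CD7 had the nearest gene end. No STAT5B list had a region at this site; an untreated STAT5B region of N642H lay elsewhere, 12779 bp from the gene (fold 5.93, 14 tags).

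CD2, an adhesion receptor gene, had an NR3C1 site 666 to 704 bp beyond its higher-coordinate end in both lines, with folds of 7.27 (15 tags) and 8.28 (16 tags), and its nearest STAT5B summit was 597342 bp away. CD5, a negative modulator of receptor signalling, was linked only to an untreated STAT5B region of WT (fold 7.32, 11 tags). That summit was 2159 bp from CD5 but 246 bp from the end of VPS37C, a gene of endosomal sorting. CD6, a related receptor, had no link, with the nearest summit 65228 bp away.

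Among the co-stimulatory and inhibitory receptors, CD28 was linked and CD27, CTLA4 and ICOS were not. CD28 (gene ID 940, chromosome 2, 203706482 to 203738912) is the main co-stimulatory receptor of naive T cells. NR3C1 was called at a different place in each line. In WT the region lay 2313 bp beyond the higher-coordinate end (203741094 to 203741230, fold 4.51, 14 tags, rank 988 of 995). In N642H it lay at the gene's start (203706235 to 203706561, fold 6.44, 15 tags, rank 2062 of 2888). It was the only region of the WT NR3C1 list at these genes that had no overlapping N642H region. The nearest summits to CTLA4, CD27 and ICOS were 63548, 41657 and 132540 bp away, all with untreated STAT5B in N642H.

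In 3 cases a region covered part of the 250 bases before a listed RefSeq start, and these sequences are shown because they are the places where a call met a start site. Each is read 5′ to 3′ along the gene's own strand on GRCh38.p14, and capitals mark the bases inside the called region. For CD28 the window is chr2:203706389-203706638 (plus strand) and the region is NR3C1 of the N642H line with prednisolone. For THEMIS it is chr6:127901059-127901308 (minus strand, before an internal start) and the same library. For CD1A it is chr1:158248086-158248335 (plus strand) and the region is untreated STAT5B of the WT line.
CD28: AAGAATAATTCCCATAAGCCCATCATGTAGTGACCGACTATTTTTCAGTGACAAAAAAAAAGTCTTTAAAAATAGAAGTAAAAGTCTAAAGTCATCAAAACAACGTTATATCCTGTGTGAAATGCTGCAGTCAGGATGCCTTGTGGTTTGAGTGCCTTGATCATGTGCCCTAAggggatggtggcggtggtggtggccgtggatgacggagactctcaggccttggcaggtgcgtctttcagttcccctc
THEMIS: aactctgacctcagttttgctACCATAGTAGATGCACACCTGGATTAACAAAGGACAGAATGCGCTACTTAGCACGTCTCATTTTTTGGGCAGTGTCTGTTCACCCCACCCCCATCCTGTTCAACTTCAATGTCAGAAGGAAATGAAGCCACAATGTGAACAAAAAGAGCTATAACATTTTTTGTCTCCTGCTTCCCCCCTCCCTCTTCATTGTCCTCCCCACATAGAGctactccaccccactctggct
CD1A: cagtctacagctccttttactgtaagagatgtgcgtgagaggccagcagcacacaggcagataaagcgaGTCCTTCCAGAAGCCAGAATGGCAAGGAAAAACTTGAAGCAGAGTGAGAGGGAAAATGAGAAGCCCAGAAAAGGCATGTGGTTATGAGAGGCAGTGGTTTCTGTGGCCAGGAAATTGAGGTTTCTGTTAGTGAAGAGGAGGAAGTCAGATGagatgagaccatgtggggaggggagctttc
The called region covered 173, 208 and 151 of the 250 bases. The start windows, which run from 250 bases before to 50 bases after a start, were searched on both strands for the STAT5 pattern TTCNNNGAA, the NR3C1 pattern ACANNNTGT and the NR3C1 hexamer AGAACA. The hexamer ends in the first letters of ACANNNTGT, so these patterns can overlap, and in the CD96 window it overlaps TTCNNNGAA. These 3 windows held none of them. The CD28 region began before its window, and its summit, at 203706325, lay outside the bases searched. Regions away from start windows, such as those of CD7, CD69, TAGAP and CD3E, could not be searched. Start windows were listed for 24 of the 35 genes, 39 windows in all. TTCNNNGAA was in 2 of the 39 (CD96 and LCP2), against 7.66% of all 35116 listed windows, ACANNNTGT in 0 against 5.37%, and AGAACA in 5 against 14.8%. None of the windows that held a pattern carried a called region in the 250 bases before its start.

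CD69, an early activation antigen that also holds cells in tissues, had the strongest NR3C1 region of the 35 genes in WT. It lay 12696 bp above CD69 (gene ID 969, chromosome 12, 9752486 to 9760901), at 9773452 to 9773774, with a fold of 29.4, 55 tags and rank 64 of 995. In N642H the overlapping region had a fold of 22.8, 57 tags and rank 251 of 2888, and a weaker second region lay 4129 bp from the gene (fold 7.12, 19 tags). The nearest STAT5B summit was 101567 bp away. CD96, an immunoglobulin-family receptor gene, had an NR3C1 region 5559 bp downstream of its start in N642H only (fold 6.77, 18 tags). CD44, the hyaluronan receptor gene, had NR3C1 summits 87395 bp (WT) and 87363 bp (N642H) away, and CD38, which encodes an NAD-consuming ectoenzyme, had its nearest summit 122733 bp away, with untreated STAT5B in N642H.

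None of the 3 kinase genes was linked to NR3C1 in any list, while 11.3% of all genes were linked to it in either line. LCK, the Src-family kinase bound to the co-receptors, was linked to an untreated STAT5B region of N642H (fold 8.68, 17 tags, rank 836 of 4542). That summit lay 5740 bp from LCK but 178 bp from the start of HDAC1, a histone deacetylase gene. ZAP70, which binds the phosphorylated CD3 and zeta chains, had its nearest summit at 49319 bp with untreated STAT5B in N642H. FYN, the other Src-family kinase of the list, had summits 101124 bp (NR3C1) and 101048 bp (untreated STAT5B) away in N642H. With the link window set to 50 kb the N642H untreated STAT5B list linked 20 of 35 genes, ZAP70, CD4 and CD27 among them, against 39.4% of all genes.

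The adaptor genes were linked in some list at 3 of 4, against 36.3% of all genes. LCP2 (gene ID 3937, chromosome 5, 170246233 to 170297777), the scaffold phosphorylated by ZAP70, was linked in 4 lists at 2 internal sites. The first, at 170262160 to 170262309, was called with NR3C1 in both lines (fold 5.10 in WT and 7.75 in N642H, 16 tags in each). The second, at 170278696 to 170279002, was called with NR3C1 in N642H (fold 5.70, 15 tags) and with untreated STAT5B in WT (fold 4.49, 12 tags) and N642H (fold 4.07, 18 tags). GRAP2, an adaptor that joins LCP2 to LAT, had an internal NR3C1 site in both lines, with folds of 7.99 in WT and 5.28 in N642H and 21 tags in each. LAT, the membrane scaffold, was linked to an untreated STAT5B region of N642H (fold 9.33, 19 tags) that lay 10103 bp from LAT but 78 bp from the start of SPNS1. TRAT1, a transmembrane adaptor gene, had its nearest summit 847393 bp away.

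Of the genes that tune or dampen receptor signalling, 3 of 4 were linked in some list, against 36.3% of all genes. TAGAP (gene ID 117289, chromosome 6, 159034481 to 159044991), a GTPase-activating protein gene of T cells, held the highest fold of all regions that were called in a single line. In N642H an internal NR3C1 region at 159043224 to 159043639 had a fold of 36.7 with 88 tags and ranked 113 of 2888. In the WT line the nearest NR3C1 summit was 380719 bp from the gene. The untreated STAT5B list of N642H had an overlapping region with a fold of 10.8 and 30 tags, rank 167 of 4542 and the strongest STAT5B region at the 35 genes, with its summit 25 bp from that of NR3C1. No WT STAT5B list had it, and with prednisolone the STAT5B list of N642H did not have it either. A second, weak NR3C1 region lay 49 bp from the TAGAP end in N642H (fold 4.67, 10 tags).

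SLA (gene ID 6503, chromosome 8, 133036728 to 133102602), an adaptor that promotes loss of the receptor from the surface, lies inside the span of TG, the thyroglobulin gene. It had 3 internal NR3C1 sites and its nearest STAT5B summit was 57491 bp away. At 133072161 to 133072499 the fold was 18.3 with 42 tags and rank 382 of 2888 in N642H, and 5.84 with 25 tags and rank 598 of 995 in WT. The next had folds of 8.49 and 6.57, and the third was called in N642H alone (fold 7.11). THEMIS, a regulator of thymocyte selection (gene ID 387357, chromosome 6, 127696628 to 127918595), had an untreated STAT5B site in both lines (fold 6.52 with 16 tags in WT, fold 6.99 with 24 tags in N642H) and a separate NR3C1 region in N642H (fold 5.52, 17 tags). UBASH3A, a suppressor of receptor signalling, had no link, with its nearest summits 80340 bp (NR3C1) and 80274 bp (untreated STAT5B) away in N642H.

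The lines were next compared region by region. Of the 10 NR3C1 regions at these genes in WT, 9 overlapped an N642H region (90%), against 89.9% of the whole WT list. In the other direction 9 of 23 N642H regions overlapped a WT region (39.1%), against 30.7% of the whole list. At these 9 sites the fold was higher in N642H at 7 and higher in WT at 2, CD69 and GRAP2, and the summits were 3 to 161 bp apart. Over the whole lists the N642H fold was the higher one in 737 of 897 such pairs (82.2%), against 77.8% of the pairs at these genes. The folds were not scaled between lists. At CD69 the tags were 55 in WT and 57 in N642H, with local backgrounds of 0.788 and 1.55 tags. At GRAP2 there were 21 tags in each line, with backgrounds of 1.65 and 3.16 tags. At these 2 sites WT thus had the higher fold without more tags. Tags were not scaled for library depth, which is not known, so equal tags do not show equal binding. In the solved signal each tag counted 0.894 in WT and 1.0 in N642H. The 14 N642H regions with no WT counterpart had folds from 4.67 to 8.07, apart from TAGAP at 36.7. When each long list was cut to its 446 strongest regions, WT kept CD7 and CD69 (5.71% of the genes, against 1.86% of all genes). N642H kept CD7, CD69, SLA and TAGAP (11.4%, against 1.88%).

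**Figure D3:**
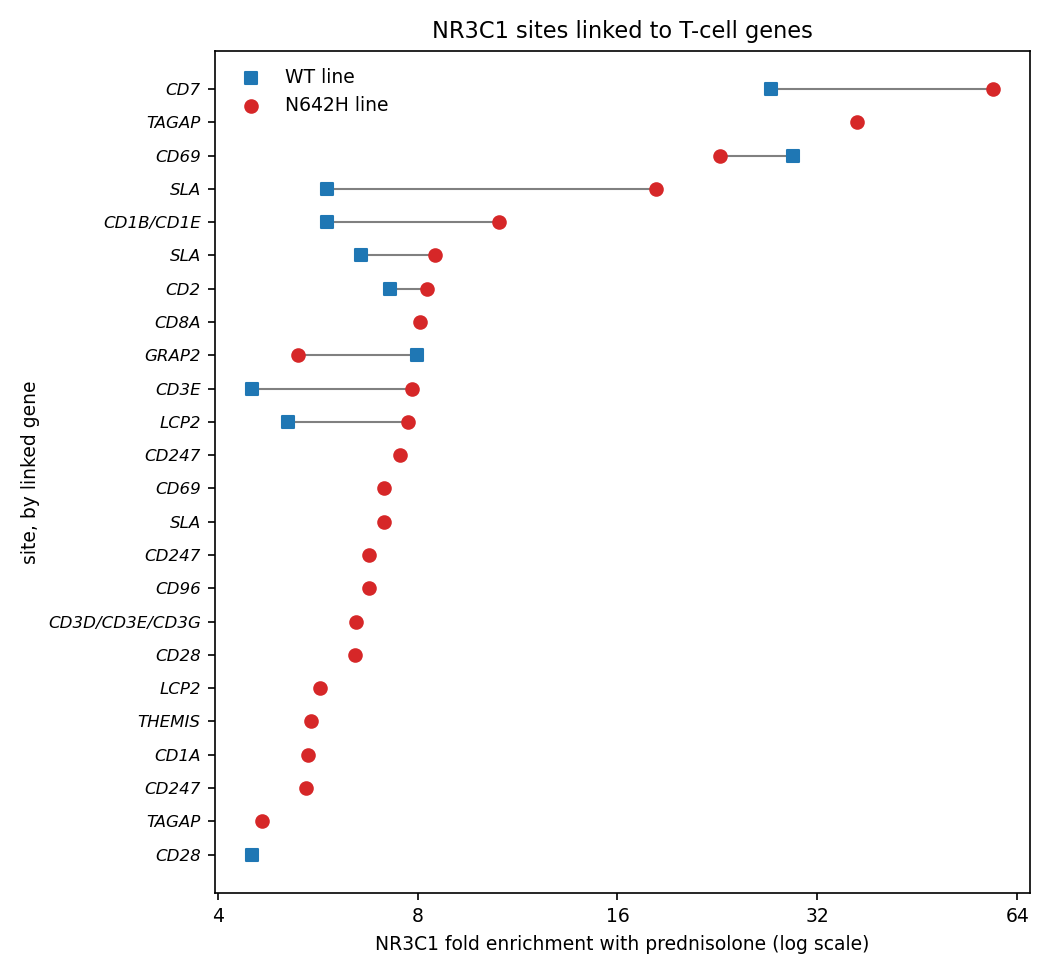
Fold enrichment of NR3C1 with prednisolone (log scale) at the 24 NR3C1 sites linked to these genes, in the WT line (blue squares) and the N642H line (red circles). A grey line joins a site called in both lines, and a single symbol means that the other line had no call. CD7 reaches 58.8 in N642H, and TAGAP has a red circle alone at 36.7. CD69 and GRAP2 have the higher fold in WT, with 55 and 21 tags there against 57 and 21 in N642H (tags not scaled for library depth).

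Untreated STAT5B regions were compared in the same way. Of the 7 WT regions 3 overlapped an N642H region (42.9%), against 61.4% of the whole list, and of the 12 N642H regions 3 overlapped a WT region (25%), against 29.8%. The shared sites were those of CD3E, LCP2 and THEMIS. Linked genes were common to both lines in 5 cases, CD247 and CD1D through different sites. The share of all genes linked to untreated STAT5B in both lines was not counted, while 15.8% were linked in WT and 28.8% in N642H. With prednisolone 1 of the 7 WT regions was called again (14.3%, against 19.9% of the list), the CD3E site, and 0 of the 12 N642H regions (against 6.87%).

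The overlap of both factors was then compared. With prednisolone the 1 STAT5B region of WT, at CD3E, overlapped NR3C1, as did 18.4% of that list of 766. N642H had no STAT5B region at these genes to compare, while 53.6% of its list of 446 overlapped NR3C1. Untreated STAT5B regions overlapped the NR3C1 regions of the same line under prednisolone in 1 of 7 cases in WT (14.3%, against 7.19% of the list). In N642H this was 6 of 12 (50%, against 17.7%). Those 6 lay at CD3E, CD247, CD8A, CD1B, LCP2 and TAGAP. The NR3C1 regions of N642H lay at untreated STAT5B regions in 6 of 23 cases (26.1%, against 27.8% of the list). The summits of both antibodies were 0 to 94 bp apart over all pairs of lists at these sites.

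**Figure D4:**
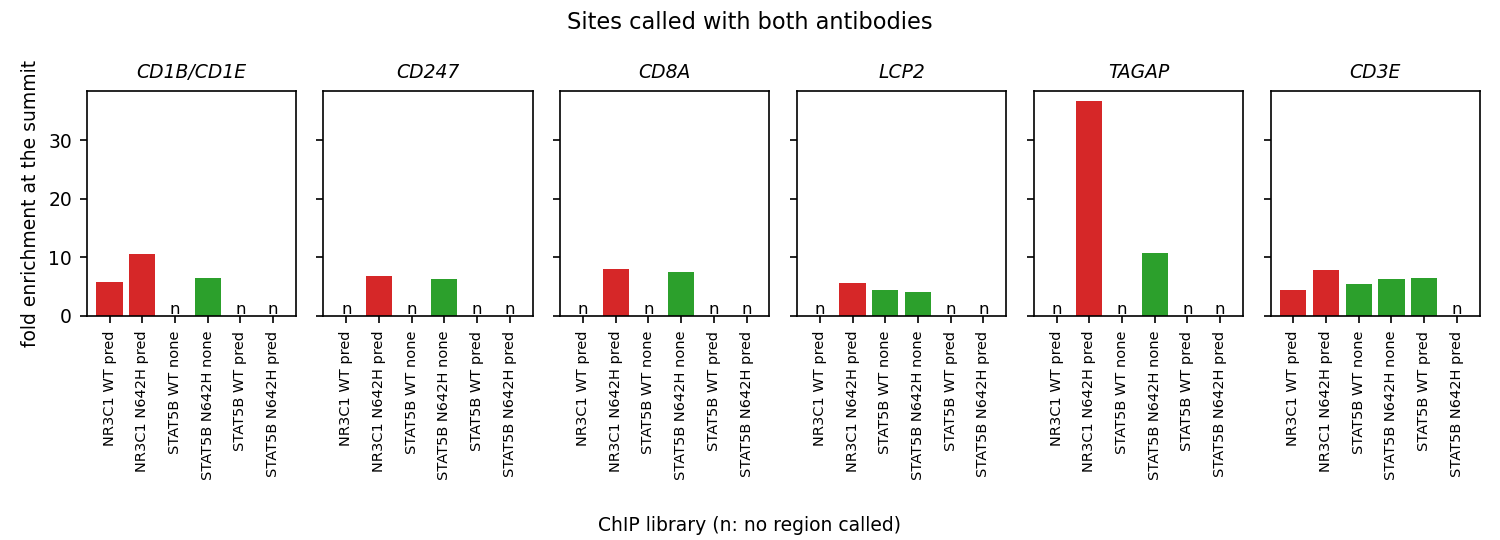
Fold enrichment in the 6 long lists at the 6 sites called with both antibodies (NR3C1 red, STAT5B green; pred, prednisolone; none, untreated; n, no region called). TAGAP stands at 36.7 with NR3C1 and 10.8 with STAT5B, both in N642H, and the other sites lie between 4.07 and 10.6.

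The position of the regions relative to gene ends was also counted. Within 1 kb of an end of a protein-coding gene lay 3 of 12 untreated STAT5B regions of N642H (25%), against 55.7% of that list, and 3 of 7 of WT (42.9%), against 57.5%. For NR3C1 it was 4 of 23 in N642H (17.4%, against 12.1%) and 2 of 10 in WT (20%, against 9.65%). The 12 untreated STAT5B regions of N642H lay inside a linked gene in 7 cases, and the 23 NR3C1 regions in 13. These counts follow in part from the link rule, and the share of all regions inside a gene was not counted.

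Other gene lists were read in the same way. A list of 40 further T-cell receptor pathway and co-receptor genes was linked to NR3C1 at 2 in WT (5%, against 4.16% of all genes). In N642H it was linked at 7 (17.5%, against 10.9%). Untreated STAT5B was linked at 14 in WT (35%, against 15.8%) and 12 in N642H (30%, against 28.8%). STAT5B with prednisolone was linked at 2 in WT (5%, against 6.09%) and 1 in N642H (2.5%, against 3.01%). Its strongest NR3C1 region lay 19359 bp from PTPRC, the CD45 phosphatase gene (fold 28.2, N642H), followed by one in DGKA, a diacylglycerol kinase gene (fold 13.9, N642H). PTPN22, a phosphatase gene that restrains LCK, had an untreated STAT5B region of fold 9.09 in N642H. The counts that follow are for WT and N642H in turn. NR3C1 links were 0 and 3 of 16 (18.8%) for B-cell genes and 0 and 0 of 16 for myeloid surface genes. They were 1 and 2 of 10 for NK-cell genes (10% and 20%) and 2 and 4 of 20 for highly expressed promoters (10% and 20%). The shares of all genes were 4.16% and 10.9%. Untreated STAT5B links were 3 and 5 of 16 for B-cell genes (18.8% and 31.2%) and 2 and 4 of 16 for myeloid surface genes (12.5% and 25%). They were 1 and 2 of 10 for NK-cell genes (10% and 20%) and 9 and 16 of 20 for highly expressed promoters (45% and 80%). The shares of all genes were 15.8% and 28.8%. As a reference, FKBP5, a classical glucocorticoid target, had an NR3C1 fold of 106 in N642H, and CISH, a cytokine-induced inhibitor gene, had an untreated STAT5B fold of 12.7 there. FKBP5 and TSC22D3, a second glucocorticoid target, were linked to NR3C1 in both lines. CISH and SOCS2, which STAT5 is known to induce, were linked to STAT5B in both N642H lists and in neither WT list. Both were also linked to NR3C1 with prednisolone in N642H and not in WT. The strongest region of SOCS2 in any list was that of NR3C1 in N642H (fold 13.7). FKBP5 was linked to STAT5B in all 4 lists.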

How the data were processed

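The samples were 12 libraries in 12 groups, 8 ChIP and 4 input; the inputs were not analysed here on their own. BWA, MACS2 and deepTools are named with build hg38, per the submitters' processing notes; their versions and settings are not given in the sources used here. For each peak the authors deposited a span, a summit offset, a score that equals 10 times the −log10 q, a fold enrichment (ratio), and −log10 p and −log10 q. The listed peaks had −log10 q of at least 2, and peaks did not overlap within a list, so calls were made per library. Regions on chromosomes 1 to 22, X and Y were used, in coordinates counted from 1.

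Gene spans and starts came from RefSeq tables of GRCh38.p14. The only sequence used was that of the start windows, and regions outside them were not read. Start windows were not listed for CD1B, CD3E, CD3G, CD4, CD5, CD6, CD69, CD7, CD8B, SLA and UBASH3A. Genes were linked by summit within 20 kb, and regions compared by overlap of at least 1 bp. Tags at a summit were solved from fold (pseudocount 1) and −log10 p under a Poisson model, for 100% of regions in 5 long lists and 98.43% in STAT5B WT with prednisolone. The solver and the linking were tested on simulated data. Python 3.11.15, pandas 2.3.3 and scipy 1.17.1 were used. With 1 library a group no test was run. Every member is named; comparison lists give counts and up to 4 of their strongest linked genes. The members and lists were chosen with earlier results of these data known.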

Additional observations from a re-analysis of the deposited data

Results flagged for a closer look

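The difference between the lines in the number of these genes linked to STAT5B had opposite signs under the 2 treatments. Untreated, the N642H line had 12 linked genes and the WT line 7, a difference of 5. With prednisolone the N642H line had 0 and the WT line 1, a difference of -1. In both lines the count was lower with prednisolone. The shares of all genes moved the same way, 28.8% in N642H and 15.8% in WT untreated, and 3.01% and 6.09% with prednisolone. With every long list cut to 446 regions the counts were 1 and 1 untreated and 0 and 0 with prednisolone. The shares of all genes were then 3.12% in N642H and 3.62% in WT untreated, and 3.01% and 3.57% with prednisolone. Each count comes from 1 library, and the difference was not tested.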

How the results depend on the processing

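Of 88 recomputed counts, 26 did not stay within 1.5 times of the reported count. Of the other 62, 26 were counts of 0 that stayed 0, and 36 were counts above 0. With −log10 q of at least 5, linked genes fell to 5 for NR3C1 in WT (14.3%, against 3.41% of all genes). They fell to 4 for untreated STAT5B in WT (11.4%, against 9.54%) and to 0 for STAT5B in WT with prednisolone (against 3.98%). Shared regions then were 5 of 5 (NR3C1, WT in N642H), 5 of 20 (N642H in WT), 1 of 4 and 1 of 10 (untreated STAT5B, WT in N642H and the reverse) and 0 of 4 (STAT5B of WT called again with prednisolone), and the overlap of STAT5B with NR3C1 in WT was 0. Every long list was then cut to 446 regions. NR3C1 linked 2 genes in WT (5.71%, against 1.86% of all genes) and 4 in N642H (11.4%, against 1.88%). Untreated STAT5B linked 1 in WT (2.86%, against 3.62%) and 1 in N642H (2.86%, against 3.12%). STAT5B in WT with prednisolone linked 0, against 3.57%. Shared NR3C1 regions were 2 of 2 and 2 of 4, and shared STAT5B regions, regions called again in WT and the overlap of antibodies in WT were each 0. The N642H NR3C1 list cut to 995 regions linked 6 genes (17.1%, against 4.1% of all genes). With a window of 50 kb, untreated STAT5B linked 12 genes in WT (34.3%, against 23.2% of all genes) and 20 in N642H (57.1%, against 39.4%). STAT5B in WT with prednisolone then linked 4 (11.4%, against 9.61%), 2 of 9 WT STAT5B regions were called again, and 2 lay at NR3C1. These settings use fewer regions or a wider window by construction. The 5 kb window, any base of the peak, fold of at least 5, peaks within 500 bp and 50% overlap kept every count within 1.5 times, counts of 0 included. No paired analysis was possible because each group held 1 library. A weak site that is absent from a list may have been missed at that library's depth.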
